A study of Mus musculus with 6 samples.

Results

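Phosphatidylcholine and phosphatidylethanolamine are the main phospholipids of animal membranes, and most cells build them by the Kennedy pathway. In that pathway a kinase phosphorylates choline or ethanolamine, a cytidyltransferase activates the product with CTP, and a phosphotransferase joins the activated head group to diacylglycerol. Phosphatidylethanolamine can also be made in mitochondria by decarboxylation of phosphatidylserine, and in liver it is methylated to phosphatidylcholine. Kidney tubule cells are rich in membrane and also use choline as a source of the osmolytes betaine and glycerophosphocholine.

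The expression of 10 genes of these routes, chosen by name (Chka, Chkb, Etnk1, Pcyt1a, Pcyt2, Chpt1, Cept1, Pemt, Ptdss1 and Pisd), is described here out of 23396 genes in the deposited table. All 10 were found, and all 10 were among the 14354 genes with enough fragments to be tested. Right kidneys of 6 males, all 6 months old, gave the RNA. The Far2 knockout group held 3 homozygous animals of the strain C57BL/6N-Far2tm2a(KOMP)Wtsi/2J, and the wild-type group held 3 C57BL/6N animals. Far2 encodes a fatty acyl-CoA reductase that makes fatty alcohols for wax esters and ether lipids. The comparison asks how kidney gene expression differs between the knockout and the wild-type mice.

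The libraries are numbered 0, 1 and 2 within each group in the deposited table, and held from 15261362 to 20631158 fragments. Far2 itself had 28, 19 and 31 fragments in knockout libraries 0, 1 and 2, against 40, 40 and 22 in wild-type libraries 0, 1 and 2. Its groups overlapped, and a count over the whole gene does not show which exons are left, so Far2 does not check the labels. The 7 proximal tubule markers summed to 19400 to 20400 CPM (fragments scaled to library size) in knockout and 17700 to 21700 CPM in wild type, and they had fragments in all 6 libraries. Wild-type library 0 stood apart, with 86.1 CPM summed over 4 tubular injury markers, against 16.2 to 16.9 CPM in knockout libraries and 15.7 and 16.1 CPM in wild-type libraries 2 and 1. It was also highest for macrophage markers (182.5 CPM, against 79.1 to 106.3 in the other libraries) and fibroblast markers (258.7 CPM, against 150.9 to 168.8). Lyz2 gave the largest part of that macrophage sum, at 83.71 CPM, against 9.96 to 22.93 CPM in the other libraries. Cd68, Emr1 and C1qa were also highest in wild-type library 0, but Csf1r was not, at 61.18 CPM, against 63.65 CPM in wild-type library 2. Knockout library 2 stood apart for fat markers, with 28.4 CPM, against 0.996 to 6.05 CPM in the other libraries. The part of these cells in the results was not tested.

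Promoter sequences are shown for the member with the highest level, Chpt1, for that with the lowest, Pemt, and for Pcyt1a. The Pcyt1a groups did not overlap in CPM, as was also so for Cept1, and only Pcyt1a had windows with the sterol element named below. The promoters are RefSeq sequences of GRCm38.p6, from 250 bases before to 50 bases after an annotated start, found for 8 of the 10 members. Capitals mark the GC box GGGCGG on either strand and, in Pcyt1a, also the sterol element TCACNCCAC on either strand, with N any base.
Chpt1, chr10:88503921-88504220, minus strand: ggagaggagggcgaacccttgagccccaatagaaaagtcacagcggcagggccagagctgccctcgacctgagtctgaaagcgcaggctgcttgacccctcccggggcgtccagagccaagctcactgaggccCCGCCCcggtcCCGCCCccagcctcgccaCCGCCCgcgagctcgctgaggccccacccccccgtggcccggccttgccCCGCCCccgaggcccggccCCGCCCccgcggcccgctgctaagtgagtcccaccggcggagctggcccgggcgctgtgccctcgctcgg
Pcyt1a, chr16:32430671-32430970, plus strand: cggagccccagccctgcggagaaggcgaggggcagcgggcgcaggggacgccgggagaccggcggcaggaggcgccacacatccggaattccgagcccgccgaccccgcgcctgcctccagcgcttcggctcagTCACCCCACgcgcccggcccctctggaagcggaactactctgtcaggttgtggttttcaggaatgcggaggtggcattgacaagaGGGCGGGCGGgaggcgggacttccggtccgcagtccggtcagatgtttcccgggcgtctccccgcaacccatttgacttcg
Pemt, chr11:60036956-60037255, minus strand: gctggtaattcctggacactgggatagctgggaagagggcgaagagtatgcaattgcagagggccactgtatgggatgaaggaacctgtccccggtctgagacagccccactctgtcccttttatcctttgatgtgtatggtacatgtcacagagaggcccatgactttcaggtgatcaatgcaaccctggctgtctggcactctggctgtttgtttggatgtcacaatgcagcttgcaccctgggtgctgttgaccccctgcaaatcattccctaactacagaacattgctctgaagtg

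The Chpt1 window was 75.3% G and C, against a median of 52.7% over all windows. It held 5 GC boxes, a number reached by 2.71% of 32851 windows of the same length. At least 1 GC box was found in 35.7% of those windows, and neither of the 2 Pemt windows held one. Members with levels between Chpt1 and Pemt also had windows without a GC box (in Cept1, Pcyt1a and Pisd), and the Etnk1 window was 73.7% G and C. A link between these strings and the levels was not tested. Of the 3 Pcyt1a windows, 2 that overlap held the same sterol element, which 1.24% of all windows hold. The other members' windows held no sterol element. The CCAAT box (CCAAT, 37.4% of all windows), the TATA box (TATAAA, 13.6%) and the E-box (CACGTG, 7.15%) were also searched on both strands, overlaps between motifs being allowed. Chka and Chkb held 2 CCAAT boxes each, and Chpt1, Cept1, Pemt and Pisd held 1 each. Chkb alone of the members held a TATA box, and no member window held the E-box. A match is a string of letters and not a shown binding site.

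Transcript levels of the 10 genes, compared per length in FPKM (fragments scaled to transcript length and library size), ran from among the highest of the tested genes to well below their middle. Chpt1, the choline phosphotransferase that completes phosphatidylcholine, was far the most abundant, at 998.4 ± 80.0 FPKM in knockout kidneys, against 889.6 ± 27.6 FPKM in wild-type kidneys (SD, n = 3 each). It ranked 57 of the 14354 tested genes by mean FPKM and made up 82.2% of the FPKM summed over the 10 genes. Pemt, the methyltransferase that turns phosphatidylethanolamine into phosphatidylcholine, ranked 11684, at 1.197 ± 0.232 FPKM in knockout kidneys, against 1.187 ± 0.303 FPKM in wild-type kidneys.

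Between these extremes lay 8 genes. Over the 6 libraries, Pcyt2 averaged 52.9 ± 3.34 FPKM, Etnk1 34.4 ± 2.85 and Pcyt1a 27.9 ± 1.01 (SD, n = 6). Pisd averaged 22.8 ± 2.07 FPKM, Ptdss1 21.4 ± 1.64 and Cept1 19.1 ± 1.22. Chka averaged 13.1 ± 1.41 FPKM and Chkb 11.2 ± 1.69. Neighbours in this order whose ranges over the libraries overlapped were Pisd and Ptdss1, Ptdss1 and Cept1, and Chka and Chkb. Pisd was above Ptdss1, and Ptdss1 above Cept1, in 6 of 6 libraries, while Chka was above Chkb in 5 of 6. The other neighbours did not overlap. The order of levels was not tested.

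**Figure D1:**
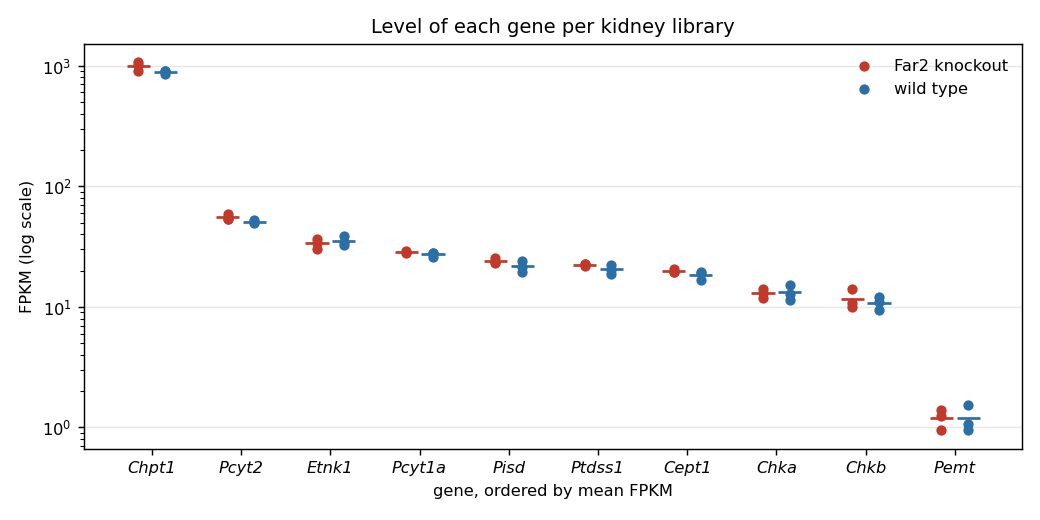
FPKM of the 10 genes in each library on a log axis, with knockout libraries in red and wild-type libraries in blue, a point per library and a bar at the group mean. Chpt1 sits at 858.1 to 1065 FPKM and Pemt at 0.945 to 1.53 FPKM, and the 2 genotypes lie close together for every gene.

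None of the 10 genes passed a threshold of 0.05 between genotypes by the edgeR quasi-likelihood test, adjusted over all genes by the Benjamini-Hochberg method. The same test called 0 of the 14354 genes (0.0%), while 1193 genes (8.31%) passed an unadjusted p of 0.05. DESeq2 called 13 genes (0.0906%), with 0 members among them. Of the members, 1 had an unadjusted p under 0.05, Chpt1. The fitted log2 fold change, knockout over wild type, was above 0 for 7 of 10 members, where 48.3% of all genes tested were above 0, and below 0 for 3, against 51.7% of all genes. Its median over the members was 0.071, against −0.007 over all genes tested, and it was 0.114 over the members without wild-type library 0. In CPM, all 3 knockout libraries were above all 3 wild-type libraries for 3 members, Pcyt1a, Cept1 and Ptdss1, as they were for 7.12% of all genes. They were below them for 0 members, against 6.96% of all genes. In FPKM the members without overlap differed, as given below for each gene. In whole kidneys, fewer cells of a type and less RNA per cell cannot be told apart.

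**Figure D2:**
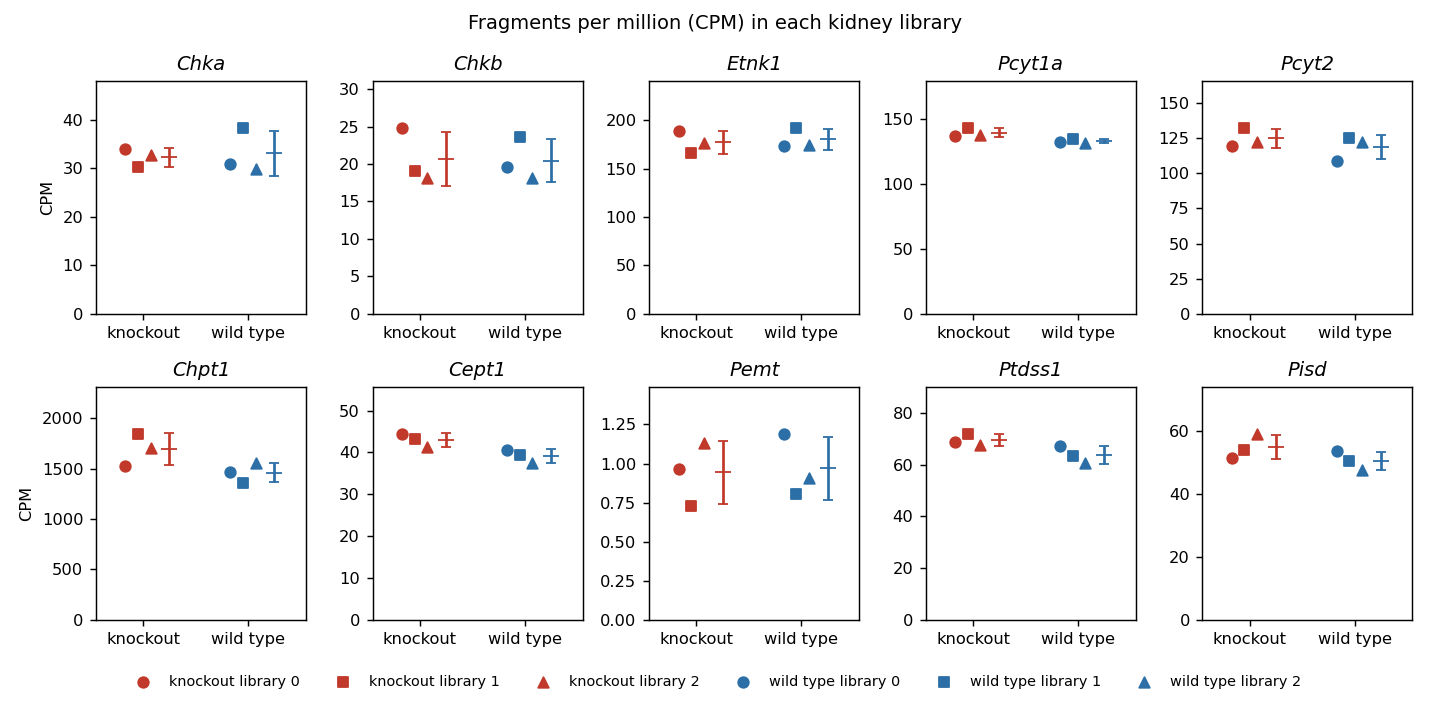
CPM of each gene (vertical axes from 0), with 3 knockout libraries at left and 3 wild-type libraries at right, and the mean with SD beside each group. Cept1, Ptdss1 and Pcyt1a show groups that do not overlap, and Chpt1 shows knockout library 0 at 1529 CPM below wild-type library 2 at 1551 CPM.

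The choline kinases commit choline to the pathway. Chka, choline kinase alpha (ENSMUSG00000024843.15, chromosome 19 from 3851773 to 3894369, plus strand), stood at 33.99, 30.2 and 32.7 CPM in knockout libraries 0, 1 and 2, against 38.4 CPM in wild-type library 1 and 30.9 and 29.8 CPM in wild-type libraries 0 and 2. The knockout values lay inside the wild-type range, with a log2 fold change of −0.035 ± 0.11 (SE, 95% interval −0.27 to 0.21; edgeR adjusted p = 0.936).

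Chkb, choline kinase beta (ENSMUSG00000022617.15, chromosome 15 from 89426360 to 89429908, minus strand), stood at 24.9, 19.1 and 18.2 CPM in knockout libraries 0, 1 and 2, against 19.6, 23.7 and 18.1 CPM in wild-type libraries 0, 1 and 2. The groups overlapped, and the log2 fold change was 0.014 ± 0.14 (SE, 95% interval −0.30 to 0.33; edgeR adjusted p = 0.983). Chkb shares its deposited locus with Cpt1b, a carnitine palmitoyltransferase, and with the transcript BC090627. It also overlaps Gm44502 on the same strand and C730034F03Rik on the opposite strand, and neither was found by symbol. The authors' fragment estimate for BC090627 was 27.1, 27.6 and 29.7 in knockout library 1, knockout library 2 and wild-type library 2, and it was under 0.0022 in the other libraries. Chkb was lower in those 3 libraries than in the other 3, and the part of fragment sharing at this locus in its values was not tested.

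Etnk1, ethanolamine kinase 1 (ENSMUSG00000030275.6, chromosome 6 from 143167221 to 143232307, plus strand), lies 4.81 Mb from Far2 on the same chromosome. It stood at 189.1, 165.8 and 176.2 CPM in knockout libraries 0, 1 and 2, against 173.7, 192.4 and 174.3 CPM in wild-type libraries 0, 1 and 2. The groups overlapped, and the log2 fold change was −0.025 ± 0.074 (SE, 95% interval −0.19 to 0.14; edgeR adjusted p = 0.932). Its paralog Etnk2 averaged 3.71 ± 0.36 FPKM in knockout kidneys, against 3.29 ± 0.40 FPKM in wild-type kidneys (SD, n = 3 each). The FPKM of Etnk1 was 8.89 to 9.26 times that of Etnk2 in knockout libraries and 8.92 to 13.5 times in wild-type libraries.

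All 3 kinases had their highest CPM in the same 2 libraries, knockout library 0 and wild-type library 1, a pattern seen after the values and not tested. These libraries were also the highest pair by summed CPM for 4 of the 13 cell type marker lists, those of collecting duct principal cells, intercalated cells, podocytes and adrenal. The principal cell markers summed to 193.1 CPM in knockout library 0 and 217.2 CPM in wild-type library 1, against 162.2 and 184.6 CPM in knockout libraries 2 and 1 and 155.4 and 174.2 CPM in wild-type libraries 2 and 0. Intercalated cell markers summed to 131.7 CPM in knockout library 0 and 136.4 CPM in wild-type library 1, with at most 122.4 CPM in the other libraries. For podocyte markers the sums were 277.8 CPM in knockout library 0 and 323.5 CPM in wild-type library 1, with at most 277.1 CPM elsewhere. For adrenal markers they were 6.95 and 6.12 CPM in those libraries, with at most 5.78 CPM elsewhere. Nearly all of the adrenal sum was Star, at 6.95 CPM in knockout library 0 and 6.07 CPM in wild-type library 1. The other adrenal markers were close to absent, with Cyp11b1 at 0 fragments in all libraries and Cyp11b2 and Cyp21a1 at 0 or 1 fragment per library. Single markers did not all do so, since Aqp2 had 90.01 CPM in knockout library 0 and 98.03 CPM in knockout library 1, and Slc4a1 had 33.02 CPM in knockout library 0 and 38.02 CPM in knockout library 1. The part of these cells in the kinase values was not tested.

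The cytidyltransferases make the activated head groups, and the step is regarded as rate-limiting in both arms. Pcyt1a, the alpha isoform for phosphocholine (ENSMUSG00000005615.15, chromosome 16 from 32430921 to 32475070, plus strand), stood at 137.4, 143.6 and 137.8 CPM in knockout libraries 0, 1 and 2, against 132.3, 134.7 and 132.0 CPM in wild-type libraries 0, 1 and 2. It was the tightest member, with a coefficient of variation of 2.49% in knockout and 1.11% in wild type, and every knockout library was above every wild-type library. The difference was small, at a log2 fold change of 0.070 ± 0.058 (SE, 95% interval −0.059 to 0.20), and did not pass (edgeR unadjusted p = 0.254, adjusted p = 0.720). Its interval allows a knockout level of 0.960 to 1.15 times wild type. On the opposite strand Pcyt1a overlaps Slc51a, which averaged 53.7 ± 8.50 CPM in knockout kidneys, against 51.8 ± 11.5 CPM in wild-type kidneys (SD, n = 3 each), with groups that overlapped. The beta isoform, Pcyt1b, was not tested and had 3 to 7 fragments per library in knockout and 3 or 4 in wild type.

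Pcyt2, the enzyme for phosphoethanolamine (ENSMUSG00000025137.15, chromosome 11 from 120610087 to 120617936, minus strand), stood at 119.7, 132.7 and 122.4 CPM in knockout libraries 0, 1 and 2, against 109.2, 124.9 and 122.5 CPM in wild-type libraries 0, 1 and 2. The groups overlapped in CPM but not in FPKM, where knockout libraries held at least 53.3 and wild-type libraries at most 52.5. The log2 fold change was 0.072 ± 0.074 (SE, 95% interval −0.094 to 0.24; edgeR adjusted p = 0.777). It was 0.014 without wild-type library 0, which held the lowest value. Per length, Pcyt2 was 1.93 ± 0.078 times Pcyt1a in knockout and 1.85 ± 0.091 times in wild type (SD, n = 3 each), and these ratios overlapped.

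The phosphotransferases carry out the last step. Chpt1 (ENSMUSG00000060002.14, chromosome 10 from 88452745 to 88504073, minus strand, 9 exons in its longest transcript), whose GC-rich promoter is printed above, stood at 1529, 1846 and 1703 CPM in knockout libraries 0, 1 and 2, against 1469, 1359 and 1551 CPM in wild-type libraries 0, 1 and 2. In CPM, knockout libraries 1 and 2 were above all wild-type libraries, and knockout library 0 fell within the wild-type range. In FPKM the groups did not overlap, but only narrowly, with knockout library 0 at 909.7 and wild-type library 2 at 909.3. The log2 fold change was 0.21 ± 0.094 (SE, 95% interval 0.002 to 0.42), a knockout level 1.16 times wild type, with an unadjusted p of 0.0480 and an adjusted p of 0.599 by edgeR. It was the largest fold change among the members, and it ranked 1145 of all tested genes by p. Without knockout library 1 it was 0.15 and without knockout library 0 it was 0.28. In the authors' deposited table Chpt1 had a log2 fold change of 0.166 and a q of 0.964. The authors' deposited table has a q under 0.05 for 88 of the 13404 genes tested there (0.657%), with 0 members among them. On the opposite strand Chpt1 overlaps Sycp3, which averaged 6.56 ± 0.91 FPKM in knockout kidneys, against 5.41 ± 1.36 FPKM in wild-type kidneys (SD, n = 3 each).

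Genes whose pattern was most like that of Chpt1 over the 6 libraries were Adhfe1 (Pearson r = 0.996 on log2 CPM), Aspdh (r = 0.992) and Cmpk1 (r = 0.992), a description out of 13195 named genes compared. Cmpk1, a pyrimidine nucleotide kinase, stood at 110, 129 and 118 CPM in knockout libraries 0, 1 and 2, against 106, 96.3 and 109 CPM in wild-type libraries 0, 1 and 2. An r above 0.95 was found for 120 genes, and all points share the same 6 libraries and their scaling.

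Cept1, which serves both choline and ethanolamine (ENSMUSG00000040774.15, chromosome 3 from 106502260 to 106547802, minus strand), stood at 44.5, 43.3 and 41.2 CPM in knockout libraries 0, 1 and 2, against 40.6, 39.3 and 37.4 CPM in wild-type libraries 0, 1 and 2. The groups did not overlap, by a margin of less than 1 CPM, and the log2 fold change was 0.13 ± 0.073 (SE, 95% interval −0.029 to 0.30; edgeR unadjusted p = 0.0965, adjusted p = 0.611). In FPKM the groups overlapped, with knockout library 2 at 19.3 and wild-type library 0 at 19.5. Cept1 overlaps Dram2 on the opposite strand, a lysosomal membrane gene with 125.1 ± 6.20 CPM in knockout kidneys, against 108.7 ± 8.30 CPM in wild-type kidneys (SD, n = 3 each), also without overlap of the groups (edgeR adjusted p = 0.599). Dennd2d, which Cept1 also overlaps on the opposite strand, had 6.99 ± 0.69 CPM in knockout kidneys, against 7.19 ± 1.24 CPM in wild-type kidneys (SD, n = 3 each), and its groups overlapped. Chpt1 was 50.6 ± 5.32 times Cept1 in FPKM in knockout and 48.5 ± 4.91 times in wild type (SD, n = 3 each). The ethanolamine phosphotransferase Ept1, named Selenoi in current annotation, averaged 32.2 ± 1.35 CPM in knockout kidneys, against 29.2 ± 1.41 CPM in wild-type kidneys without overlap (log2 fold change 0.14 ± 0.078, SE; edgeR adjusted p = 0.617).

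**Figure D3:**
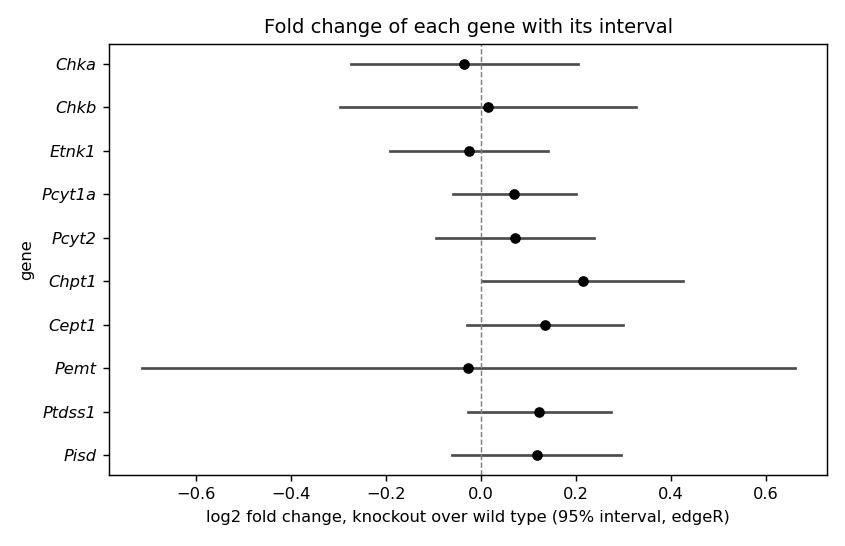
Log2 ratio of knockout to wild type for the 10 genes, as points with 95% intervals from edgeR. The interval of Chpt1, 0.002 to 0.42, is the only one that leaves out 0 before adjustment, and that of Pemt, −0.71 to 0.66, is the widest.

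Pemt (ENSMUSG00000000301.16, chromosome 11 from 59970614 to 60046489, minus strand) is a liver enzyme in the main. It had 17, 11 and 21 fragments in knockout libraries 0, 1 and 2, against 24, 17 and 14 in wild-type libraries 0, 1 and 2. The exact Poisson 95% interval ran from 5.49 to 19.7 fragments in the lowest library and from 15.4 to 35.7 in the highest, counting error alone. With a log2 fold change of −0.027 ± 0.31 (SE, 95% interval −0.71 to 0.66; edgeR adjusted p = 0.987), the interval allows a knockout level of 0.610 to 1.58 times wild type. The liver markers Alb, Apoa1, Ttr and Serpina1a summed to 152 to 178 CPM in knockout kidneys, against 110 to 131 CPM in wild-type kidneys. Most of this sum was Ttr, the only one of these markers whose groups did not overlap. Ttr averaged 118.8 ± 17.7 CPM in knockout kidneys, against 78.56 ± 15.4 CPM in wild-type kidneys (SD, n = 3 each). Serpina1a averaged 30.0 CPM in knockout kidneys, against 31.65 CPM in wild-type kidneys, and Alb averaged 14.87 CPM, against 11.42 CPM. Apoa1 was below 1 CPM in all libraries.

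The phosphatidylserine route supplies phosphatidylethanolamine inside mitochondria. Ptdss1, which exchanges the head group of phosphatidylcholine for serine (ENSMUSG00000021518.4, chromosome 13 from 66932830 to 66998401, plus strand), stood at 68.7, 72.0 and 67.8 CPM in knockout libraries 0, 1 and 2, against 67.3, 63.5 and 60.7 CPM in wild-type libraries 0, 1 and 2. The groups did not overlap, and the log2 fold change was 0.12 ± 0.067 (SE, 95% interval −0.028 to 0.27; edgeR unadjusted p = 0.0990, adjusted p = 0.613). In FPKM the highest Ptdss1 values of the groups were 22.8 in knockout and 22.4 in wild type, and the groups overlapped. On the opposite strand Ptdss1 overlaps Mterfd1, a mitochondrial transcription factor gene, with 24.6 ± 0.20 CPM in knockout kidneys, against 21.4 ± 2.09 CPM in wild-type kidneys (SD, n = 3 each), again without overlap (edgeR adjusted p = 0.599). Another opposite-strand gene, 4933433G19Rik, had 1 to 6 fragments per library and was not tested. The part of opposite-strand fragments in the Pcyt1a, Chpt1, Cept1 and Ptdss1 values was not tested. Ptdss2, which acts on phosphatidylethanolamine, averaged 45.3 ± 3.35 CPM in knockout kidneys, against 47.3 ± 4.30 CPM in wild-type kidneys (SD, n = 3 each), with a log2 fold change of −0.062 ± 0.090 (SE; edgeR adjusted p = 0.846).

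Pisd, the mitochondrial decarboxylase (ENSMUSG00000023452.19, chromosome 5 from 32736301 to 32785646, minus strand), stood at 51.5, 53.8 and 59.0 CPM in knockout libraries 0, 1 and 2, against 53.4, 50.4 and 47.6 CPM in wild-type libraries 0, 1 and 2. The groups overlapped, with a log2 fold change of 0.12 ± 0.079 (SE, 95% interval −0.060 to 0.30; edgeR adjusted p = 0.672). Genes named as copies of Pisd make this gene less certain, and how alike their sequences are was not measured here. The copy Pisd-ps1 had 29.9 ± 7.78 FPKM in knockout kidneys, against 29.6 ± 7.62 FPKM in wild-type kidneys (SD, n = 3 each), a mean above that of Pisd in both groups. Pisd-ps2 had 6.35 ± 0.49 FPKM in knockout kidneys, against 5.63 ± 0.88 FPKM in wild-type kidneys (SD, n = 3 each), and its groups overlapped. Pisd-ps3 was listed at 0 in all 6 libraries. On the same strand Pisd overlaps Gm20671 and Gm43695, which were not found by symbol. How any fragments shared by these genes were assigned is not given in the sources used here.

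The genes around the pathway were described by 10 further lists holding 72 genes, of which 70 were found by symbol and 65 were tested. edgeR's test called 0 of the 65 after adjustment over all genes, and 6 had an unadjusted p under 0.05, 4 higher in knockout (3.17% of all genes) and 2 lower (5.14% of all genes). Of the 65, 33 had a log2 fold change above 0, and the median over the 65 was 0.003. List medians ran from −0.058 for choline and ethanolamine entry to 0.141 for the 3 tested genes of the members' own families.

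Choline enters through transporters of the Slc44 family and organic cation transporters. Slc44a2, a choline transporter-like protein, averaged 26.7 ± 1.99 CPM in knockout kidneys, against 32.4 ± 1.93 CPM in wild-type kidneys (SD, n = 3 each), with a log2 fold change of −0.28 ± 0.087 (SE; edgeR unadjusted p = 0.00947, adjusted p = 0.599). Its relative Slc44a4 averaged 143.6 ± 10.2 CPM in knockout kidneys, against 126.8 ± 9.0 CPM in wild-type kidneys (SD, n = 3 each), with a log2 fold change of 0.18 ± 0.078 (SE; edgeR unadjusted p = 0.0436, adjusted p = 0.599). The groups of each gene did not overlap, and these were the only members of the list past an unadjusted p of 0.05. Slc22a2, an organic cation transporter of the proximal tubule, had the highest level of the list, at 155.6 FPKM over all libraries, and its groups overlapped.

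Kidney is a main site of choline oxidation. Chdh, choline dehydrogenase, averaged 420.5 ± 17.9 CPM in knockout kidneys, against 415.8 ± 8.62 CPM in wild-type kidneys (SD, n = 3 each), with a log2 fold change of 0.016 ± 0.067 (SE; edgeR adjusted p = 0.955). Of the 6 oxidation and betaine genes, 4 were above 0, with a median log2 fold change of 0.009, and 0 had an unadjusted p under 0.05. The smallest p was that of Bhmt2, a methyltransferase related to the betaine enzyme, at 138.9 ± 4.24 CPM in knockout kidneys, against 130.6 ± 8.18 CPM in wild-type kidneys (SD, n = 3 each). Aldh7a1, which makes betaine from the aldehyde, had the highest level, at 102.0 FPKM over all libraries.

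Glycerophosphocholine is both a breakdown product of phosphatidylcholine and an osmolyte of the renal medulla. Gpcpd1, which splits it, averaged 43.6 ± 6.44 CPM in knockout kidneys, against 32.2 ± 3.23 CPM in wild-type kidneys without overlap (SD, n = 3 each). Its log2 fold change of 0.44 ± 0.12 (SE; edgeR unadjusted p = 0.00436, adjusted p = 0.599) was the highest of the 65 genes. Slc5a3, the myo-inositol transporter, had the highest FPKM of the list, and averaged 611.6 ± 45.6 CPM in knockout kidneys, against 593.4 ± 17.8 CPM in wild-type kidneys. Of the 9 genes of this list 6 were below 0, and the median was −0.036.

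Acyl chains of finished phosphatidylcholine are exchanged by lysophospholipid acyltransferases. Lpcat3, which prefers polyunsaturated chains and had the highest level of its list, averaged 119.8 ± 3.49 CPM in knockout kidneys, against 102.8 ± 4.77 CPM in wild-type kidneys (SD, n = 3 each). The groups did not overlap, and the log2 fold change was 0.22 ± 0.063 (SE; edgeR unadjusted p = 0.00617, adjusted p = 0.599). The 7 genes of the list had a median of −0.024, with 5 below 0.

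In the list of transfer proteins, Pitpnb averaged 26.7 ± 2.43 CPM in knockout kidneys, against 32.2 ± 1.48 CPM in wild-type kidneys without overlap (log2 fold change −0.27 ± 0.089, SE; edgeR unadjusted p = 0.0131, adjusted p = 0.599). Stard10, a transfer protein for both phospholipids, had the highest FPKM of that list, and averaged 317.3 ± 25.4 CPM in knockout kidneys, against 290.3 ± 13 CPM in wild-type kidneys. Ptpmt1, a mitochondrial phosphatase of cardiolipin synthesis in the CDP-diacylglycerol branch, averaged 22.9 ± 0.77 CPM in knockout kidneys, against 20.3 ± 0.61 CPM in wild-type kidneys (edgeR unadjusted p = 0.0450, adjusted p = 0.599). Cdipt, which makes phosphatidylinositol, had the highest level of that branch, at 25.9 FPKM over all libraries.

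The remaining lists had 0 genes with an unadjusted p under 0.05. Their genes with the smallest p were Mat2a, which makes the methyl donor (432.0 ± 44.0 CPM in knockout kidneys, against 384.6 ± 47.6 CPM in wild-type kidneys), Gpam, the first acyltransferase toward diacylglycerol (195.3 ± 6.83 CPM in knockout kidneys, against 175.6 ± 12.3 CPM in wild-type kidneys), and Gde1, a glycerophosphodiester phosphodiesterase (119.2 ± 3.01 CPM in knockout kidneys, against 110.5 ± 1.37 CPM in wild-type kidneys; SD, n = 3 each). The median log2 fold change was 0.005 for methyl donor supply, 0.012 for diacylglycerol supply and 0.010 for breakdown and head group release. Agpat3, an acyltransferase, had the highest level of the diacylglycerol list, at 89.0 FPKM over all libraries.

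**Figure D4:**
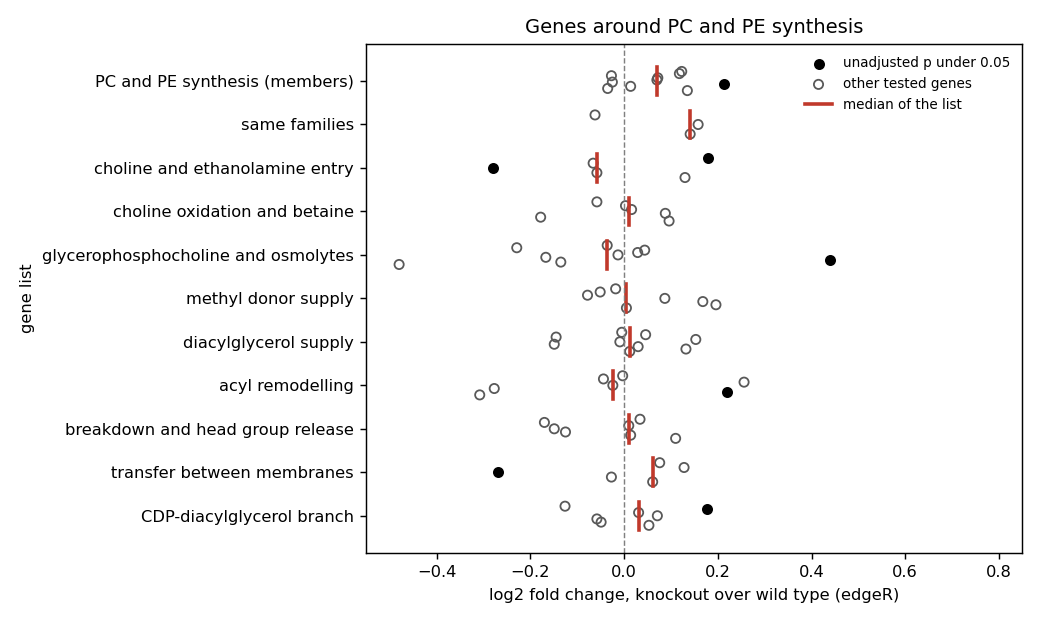
Log2 ratio of knockout to wild type (edgeR) for every tested gene of the 10 members and the 10 further lists, with filled points for an unadjusted p under 0.05 and a red bar at each list's median. List medians lie between −0.058 and 0.141, and Gpcpd1 at 0.44 is the point farthest to the right.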

How the data were processed

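Stranded libraries of total RNA without ribosomal RNA were made from frozen kidneys, per the labels' protocols. Tools listed in the submitters' processing notes, without roles, are Bowtie2 2.2.3, Cuffdiff, Cufflinks 2.2.1, SAMtools 1.2, cutadapt 1.2.1 and TopHat2 2.0.13, with the build mm10. For every gene and library, the authors deposited estimated counts of fragments and FPKM scaled between libraries. For every gene they also deposited mean FPKM per group, a log2 fold change, a p-value and a q-value. Of the estimated counts 1.12% are not whole, in 312 genes (exact match), and all were rounded here. The numbers of the libraries could be tied to a genotype but not to an individual animal, and the design text of the series calls the animals biological replicates. The sources used here give neither gene models nor a strand setting, so overlapping genes are uncertain.

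After the filterByExpr filter and TMM scaling, differences were tested in R 4.3.3 by the two-sided quasi-likelihood method of edgeR 4.0.16, with a Benjamini-Hochberg threshold of 0.05. Standard errors and 95% intervals come from that fit, whose biological coefficient of variation was 10.1%. CPM uses TMM-scaled library sizes. DESeq2 1.42.0, limma 3.58.1 and other settings were alternatives. The scripts were tested on simulated data. Coordinates are GENCODE M21 (GRCm38, which mm10 names). Summaries used Python 3.11.15. Members, lists and the rule for named genes were chosen with earlier results of these data known. The rule takes all members, their families, genes sharing a locus, and from each list the gene with the smallest p and that with the highest FPKM. Other named genes were chosen after their values were seen.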

Additional observations from a re-analysis of the deposited data

How the results depend on the processing

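In 15 alternatives 0 members were called, and 6 members kept a log2 fold change above 0 in each one (Chpt1, Cept1, Pcyt1a, Pcyt2, Ptdss1 and Pisd). For Chpt1 it ran from 0.146 to 0.282 (adjusted p 0.491 to 0.998), with an unadjusted p under 0.05 in 7 of 15. The number of members above 0 was 6 to 10. Genes called over all were 13 by DESeq2, 1 without a filter, and 0 to 1 with a library left out. The median over the members was 0.071 to 0.116 with a library left out, with 0.114 without wild-type library 0 and 0.116 without wild-type library 1. With all libraries kept, it ran from 0.055 with upper-quartile scaling to 0.095 on log2(FPKM + 0.1). The direction turned for Chkb with upper-quartile scaling (−0.002) and for Pemt on log2(FPKM + 1) (0.010) and log2(FPKM + 0.1) (0.021). With a library left out, values ran from −0.101 to 0.092 for Chka, −0.140 to 0.138 for Chkb, −0.075 to 0.028 for Etnk1 and −0.179 to 0.161 for Pemt. The cause was not tested. With 1 CPM in 3 libraries as the filter Pemt was not tested. No paired analysis was possible because the library numbers match no sample label. Depth limits Pemt and Pcyt1b.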
